A study of Homo sapiens with 9 samples.

Results

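Cadherins, claudins, desmosomal proteins and the scaffolds beneath them were followed in LX-2 cells, an immortalised human hepatic stellate cell line, through RNA-seq of whole cultures. The genes were taken by symbol: every listed cadherin (CDH), claudin (CLDN), zonula occludens (TJP), plakophilin (PKP), desmocollin (DSC) and desmoglein (DSG) gene with a plain number, together with OCLN, DSP, JUP, EPCAM, F11R, ESRP1 and ESRP2. The rule found 47 of the 20777 genes in the count table. They comprised 5 type I cadherins, 9 type II cadherins, 3 other cadherins, 11 claudins, 2 other tight junction membrane proteins, 3 zonula occludens scaffolds, 5 desmosomal cadherins, 6 plaque proteins, and a group of 3 made up of the epithelial adhesion molecule EPCAM and the splicing regulators ESRP1 and ESRP2.

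The series compared 3 libraries of untreated cells (control), 3 of cells given TGF-β, the cytokine used to activate stellate cells, and 3 of cells given TGF-β and uridine, a pyrimidine nucleoside (TGF-β + uridine). According to the study's methods, uridine was added in fresh medium after the TGF-β treatment, and whether the other groups had the same medium change is not given in the sources used here. The treatment is dated day 1 in the labels, and all groups share the same unmodified line, so the libraries sample 1 line and nothing in the labels says whether they came from separate cultures. The p-values therefore measure the spread between these libraries, which may be technical. TGF-β against control is called the TGF-β effect, TGF-β + uridine against TGF-β the uridine effect, and TGF-β + uridine against control the combined effect. There was no group given uridine alone, and the 3 effects share libraries, so their values are placed side by side and not treated as independent.

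Classical cadherins join neighbouring cells through calcium-dependent contacts and are tied to actin by catenins. Claudins seal or open the tight junction, where F11R and occludin also sit and where the zonula occludens proteins anchor the strands to the cytoskeleton. In desmosomes, desmogleins and desmocollins are linked by plakoglobin (JUP), plakophilins and desmoplakin (DSP) to intermediate filaments. Activation of stellate cells and epithelial-mesenchymal transition are both commonly described with changes in these genes, above all a shift from E-cadherin (CDH1) to N-cadherin (CDH2).

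The libraries held between 40539751 and 41467124 counts, and 3 counts, the limit that a count of 0 allows, corresponded to between 0.0629 and 0.0889 normalized CPM, which are counts scaled to a common library size. Levels of a gene across libraries are given as CPM on library sizes scaled by the trimmed mean of M-values (TMM), and levels between genes as the deposited FPKM, which corrects for gene length. Counting limits cover counting error only. Because whole cultures were sequenced, fewer cells of a type and less RNA per cell cannot be told apart.

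The label of the line was checked against markers of stellate cells. Of 17 listed markers, 16 were in the table and 13 had enough reads to be tested, with a summed FPKM of 737 to 829 in control, 1214 to 1234 in TGF-β and 1114 to 1130 in TGF-β + uridine. Most of this sum was VIM, with a mean of 501 FPKM in control, 841 in TGF-β and 751 in TGF-β + uridine. VIM, PDGFRB, ACTA2 and TAGLN rose in the TGF-β effect (edgeR adjusted p = 0.00442, 0.00157, 0.0106 and 0.00512). The other tested markers, COL1A1, COL3A1, COL6A1, DES, LUM, DCN, THY1, TIMP1 and SPARC, were not called in that effect. LRAT was not in the table. COL1A2, HAND2 and RELN had at most 1 read in any library, and LUM at most 17, so the defining stellate markers were partly absent. Genes of simple epithelium were abundant in every group: 8 of 9 were in the table, KRT8 stood at 5106 ± 1839 CPM in control (SD, n = 3), and the list summed to 4330 to 6107 FPKM in control, 5330 to 5484 in TGF-β and 4405 to 4986 in TGF-β + uridine. CD24 of this list rose in the TGF-β effect (edgeR adjusted p = 0.026). The hepatocyte list (6 of 9 in the table) summed to at most 0.392 FPKM in any library. The endothelial list (6 of 7 in the table) summed to 0.325 to 0.461 FPKM in control, 1.09 to 1.37 in TGF-β and 1.03 to 1.09 in TGF-β + uridine, with ROBO4 called (edgeR adjusted p = 0.00495) and ERG at no more than 1 read. The macrophage list (6 of 7 in the table) lay between 19.6 and 20.6 FPKM in control, 30.6 and 32.7 in TGF-β and 27.1 and 30.5 in TGF-β + uridine, with CSF1R called (edgeR adjusted p = 0.000405) and MARCO, CD163 and LYZ at 2 reads or fewer. Most of this sum was CD68, with a mean of 17.7 FPKM in control, 22.1 in TGF-β and 19.8 in TGF-β + uridine. PTPRC was not in the table, and CD14 had at most 12 reads. The part of these levels in the junction gene results was not tested.

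The libraries also differed in their balance of GC-rich and GC-poor transcripts. The slope of log2 CPM on GC content was 13.8, 7.44 and 4.08 in controls 1, 2 and 3, 7.85 to 8.72 in TGF-β and 5.49 to 10.5 in TGF-β + uridine. Control 1 and control 3 were therefore the most unlike pair, and junction genes followed it: of 11 tested members with less than 50% GC, 10 were lower in control 1 than in control 3 (median log2 ratio -1.5), against 4 of 17 members with 50% GC or more (median 0.62). Across the 28 tested members, which share these libraries, Pearson's r between GC content and this ratio was 0.756, given as a description. Its part in single results was not tested, and counts with the slope as a covariate are given beside each effect.

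**Figure D1:**
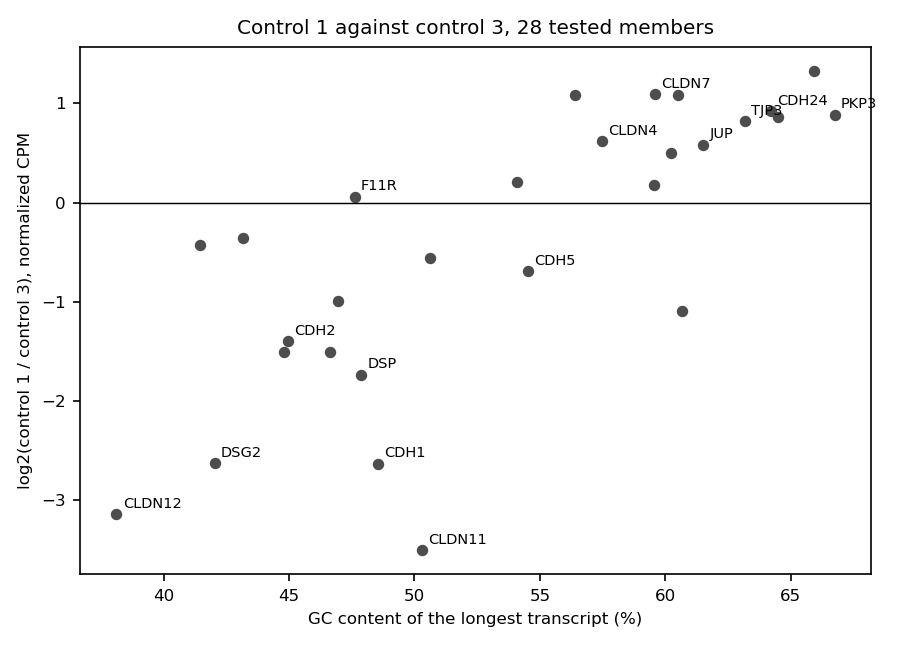
GC content of the longest transcript (percent, x axis) against the log2 ratio of normalized CPM in control 1 over control 3 (y axis) for the 28 tested members, 1 point each, some named. Points at low GC lie mostly below 0 and points at high GC mostly above it. The lowest GC content is that of CLDN12 (38.1%, ratio -3.14) and the highest that of PKP3 (66.8%, ratio 0.89). The ratios themselves run from -3.5 for CLDN11 at 50.3% GC to 1.33 for CDH15 at 65.9% GC.

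Of the 47 junction genes, 28 had enough reads to enter the test of 13384 genes. The other 19 had at most 11 reads in any library and were CDH4, CDH6, CDH7, CDH8, CDH10, CDH11, CDH18, CDH22, CDH23, CLDN6, CLDN14, CLDN16, DSC2, DSC3, DSG3, DSG4, EPCAM, OCLN and ESRP1. By mean FPKM over the 9 libraries, 5 members stood at 10 or more, 11 between 1 and 10, and 31 under 1. The highest were PKP3 (rank 894 of all listed genes), JUP (rank 961), DSP (rank 1851), F11R (rank 2525) and CLDN4 (rank 2727). Thus transcripts of plaque genes, of 1 immunoglobulin-like tight junction protein and of 1 claudin led the set, while most cadherins and all desmocollins were near 0.

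**Figure D2:**
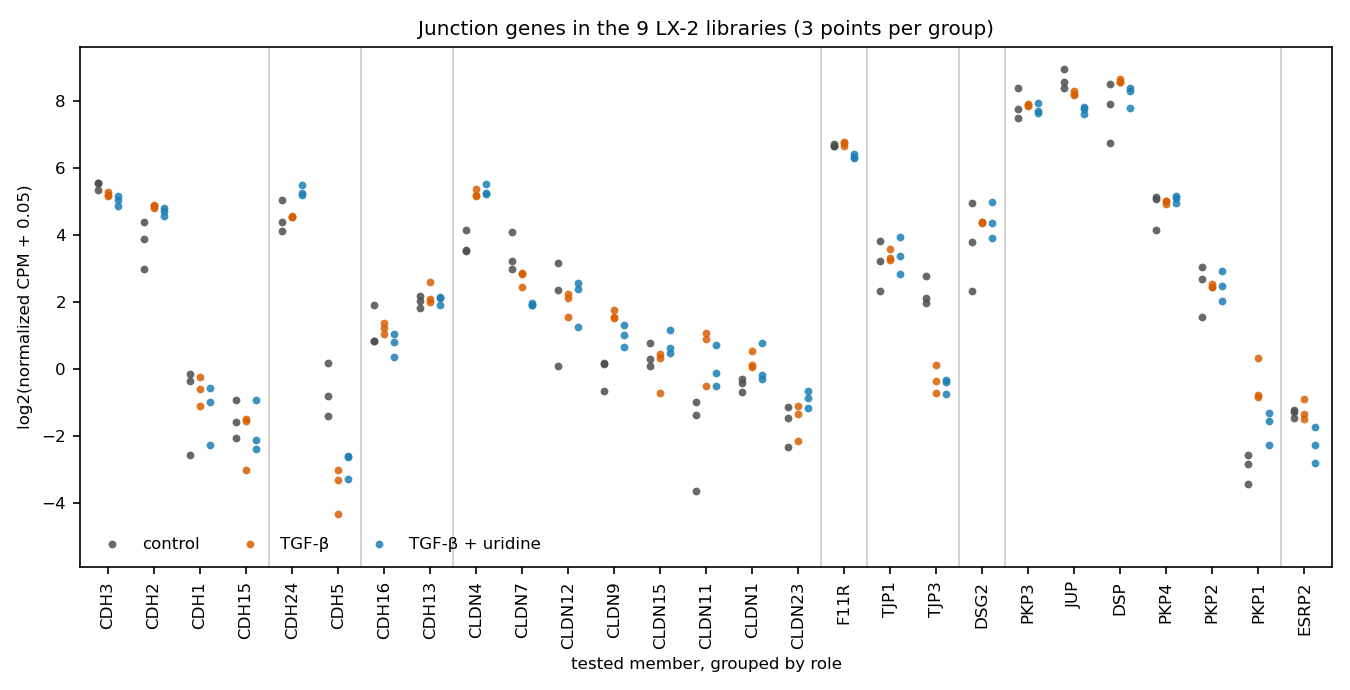
Normalized CPM of 27 of the 28 tested members on a log2 scale after adding 0.05 (y axis), grouped by role along the x axis, with 3 points per group for control, TGF-β and TGF-β + uridine. Plaque genes PKP3, JUP and DSP and the tight junction gene F11R sit at the top, while CDH5 and PKP1 lie near the bottom. Both of these passed the read filter only through the groups where they were high.

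In the TGF-β effect, 3 of 28 tested members rose and 2 fell (edgeR quasi-likelihood test, Benjamini-Hochberg adjusted p under 0.05), where 2.42% of all tested genes rose and 0.964% fell. CLDN4, CLDN9 and PKP1 rose. TJP3 and CDH5 fell. Of these 5, CDH5 reached the read filter only in control libraries and PKP1 only in treated ones. Both passed the filter through the groups where they were high. Neither their calls nor their lack of overlap is read against the background, here or in the counts of other effects and alternatives below. The median log2 fold change was 0.06 over the members and -0.05 over all genes tested. Groups did not overlap for 7 members that were higher with TGF-β, PKP1 among them, and 5 that were lower, CDH5 among them. The shares of all tested genes were 9.72% and 7.96%. With 3 libraries against 3 the exact permutation test cannot go below p = 0.1, the value each of these members had. With the GC slope as a covariate, chosen after the data were seen, 12 members were called, where 20.3% of all tested genes were: CDH2, CLDN11, DSG2 and DSP joined the higher members and CDH3, CLDN7 and JUP the lower ones. DESeq2 called 7 members, with CDH2 and CLDN11 added as higher, and 6.43% of all tested genes.

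In the combined effect, CLDN4 rose again and TJP3, JUP and CLDN7 fell, so 1 of 28 members was higher and 3 were lower, where 2.89% and 2.44% of all tested genes were. Groups did not overlap for 7 higher and 7 lower members, against 10.5% and 9.2% of all genes. PKP1 was among the higher, and CDH5 and ESRP2 among the lower. ESRP2 reached the read filter in 3 control, 3 TGF-β and 1 TGF-β + uridine libraries, so it passed through the groups where it was high. It is likewise not read against the background, here or in the uridine effect. The median log2 fold change was 0.01 over the members and -0.01 over all genes. The GC slope as a covariate raised the count to 14 members and the share of all tested genes called to 31.1%, and DESeq2 gave 10 members and 9.66% of all genes. Leaving out control 1 gave 11 members and 17.6% of all genes, with CDH2, CDH24 and CLDN9 added among the higher and CDH3, CDH5 and F11R among the members added as lower.

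In the uridine effect, no junction gene passed edgeR's adjusted threshold, where 0.0% of all tested genes rose and 0.0448% fell. At an unadjusted p under 0.05, CDH24 was higher and F11R, JUP, PKP1, CLDN7 and ESRP2 were lower, against 4.65% higher and 4.14% lower of all tested genes. Groups did not overlap for 2 members that were higher and 9 that were lower with uridine, against 12.8% and 12.8% of all genes. PKP1 and ESRP2 were among the lower, and neither is read against these shares. The median log2 fold change was -0.14 over the members and 0.02 over all genes. DESeq2 called 1 member (F11R, lower) and 1.79% of all genes. Limma on log2(FPKM + 1) called 2 members (CDH24 higher, JUP lower) and 3.89% of all genes, and the fit of the TGF-β and TGF-β + uridine libraries alone called 3 (CDH24 higher, F11R and JUP lower) and 2.44%. Without control 1, which is no part of this comparison but shares its estimate of spread, 4 members (CDH24 higher, with CLDN7, F11R and JUP lower) and 1.98% of all genes were called. With the GC slope, 5 members (DSP lower in addition) and 19.1% of all genes were called.

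**Figure D3:**
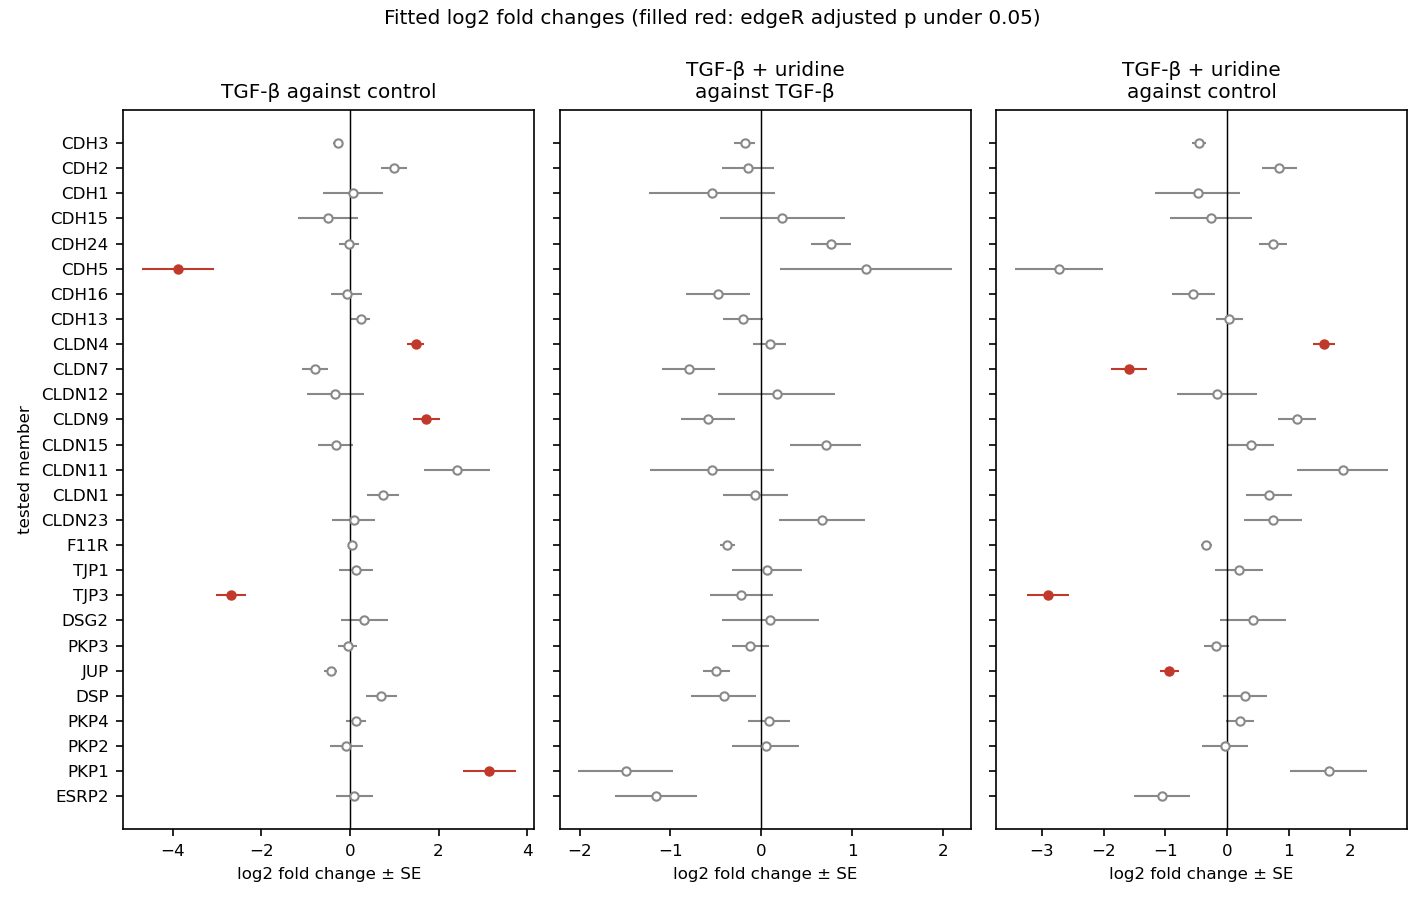
Fitted log2 fold changes with their standard errors (x axis) of 27 of the 28 tested members (y axis) in the TGF-β, uridine and combined effects, 1 panel each with its own x scale. Filled red points passed the adjusted threshold: 5 in the TGF-β effect, none in the uridine effect and 4 in the combined effect.

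Among the type I cadherins, P-cadherin (CDH3) and N-cadherin (CDH2) made up nearly all of the message and E-cadherin (CDH1) was scarce in every group. CDH1, the classical epithelial cadherin, had 4, 36 and 35 reads in control, 24, 33 and 17 in TGF-β and 27, 6 and 20 in TGF-β + uridine. Its groups overlapped, and its level of 0.570 ± 0.396 CPM in control and 0.606 ± 0.192 in TGF-β (SD, n = 3) differed by 0.07 on the log2 scale (SE 0.68, edgeR adjusted p = 0.998). With this few reads, only a large change of CDH1 could have been seen.

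CDH2 had 7.85, 14.5 and 20.6 CPM in control, 27.7, 29.3 and 28.9 in TGF-β and 27.8, 23.6 and 26.1 in TGF-β + uridine. All treated libraries lay above all controls, which spread widely. The log2 fold change was 1.00 in the TGF-β effect (SE 0.29, edgeR adjusted p = 0.124) and 0.85 in the combined effect (edgeR adjusted p = 0.150), and neither passed. The TGF-β effect of CDH2 passed without control 1 or control 3 (edgeR adjusted p = 0.0216 and 0.0173) and with DESeq2 (adjusted p = 0.015). Of the 9 fits that left out 1 library, only these 2 called it, and edgeR adjusted p reached 0.340 in the others. Of 13 other alternatives 4 called it, namely DESeq2 and the fits with the GC slope. It was not called with other scalings or read filters, with the replicate block, in limma or in the fit of the compared groups alone. CDH3 had 46.3, 46.7 and 40.0 CPM in control, 36.5, 38.4 and 35.6 in TGF-β and 32.8, 35.6 and 29 in TGF-β + uridine. Control libraries were the highest and did not overlap with the others, with values of -0.27 on the log2 scale in the TGF-β effect (SE 0.12, edgeR adjusted p = 0.384) and -0.45 in the combined effect (edgeR adjusted p = 0.0610). Per length, CDH2 made up 17.1%, 27.4% and 38.5% of the CDH2 and CDH3 FPKM in control, 48.0% to 49.6% in TGF-β and 44.6% to 52.2% in TGF-β + uridine. The sum of the 5 type I cadherins was 11.5 ± 2.78 FPKM in control, 13 ± 0.529 in TGF-β and 11.9 ± 0.858 in TGF-β + uridine (SD, n = 3), within the spread of control. CDH15, the muscle cadherin M-cadherin, had at most 0.474 CPM in any library, and CDH4, or R-cadherin, was not tested.

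CDH24 carried 92.7% or more of the type II cadherin FPKM in every library. It had 32.9, 20.6 and 17.3 CPM in control, 23.1, 23.6 and 23.1 in TGF-β and 36.2, 45.0 and 37.5 in TGF-β + uridine. The TGF-β + uridine libraries were above all others, while TGF-β fell inside the range of control. The uridine effect was 0.77 (log2, SE 0.22, edgeR adjusted p = 0.350), the combined effect 0.75 (edgeR adjusted p = 0.0988) and the TGF-β effect -0.02 (edgeR adjusted p = 0.998). Over its alternatives, the uridine effect of CDH24 was called in limma (adjusted p = 0.0152 on log2(FPKM + 1)), in the fit of the compared groups alone (adjusted p = 0.00999) and with the GC slope (edgeR adjusted p = 3.38e-05). It was not called in DESeq2 (adjusted p = 0.107), with other scalings or read filters or with the replicate block, and of the 9 fits that left out 1 library it was called in 1, without control 1 (adjusted p = 0.0125).

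CDH5, or VE-cadherin, the cadherin of endothelial junctions, fell with TGF-β from a level already low. It had 11, 45 and 25 reads in control, 2, 0 and 3 in TGF-β and 5, 2 and 5 in TGF-β + uridine. Its control libraries alone reached the read filter, so a gene with this pattern had to be high there to be tested at all. Normalized, the levels were 0.641 ± 0.386 CPM in control, 0.0411 ± 0.0374 in TGF-β and 0.0938 ± 0.0360 in TGF-β + uridine (SD, n = 3), and the TGF-β effect on the log2 scale was -3.88 (SE 0.81, edgeR adjusted p = 0.0314). The call was lost when any of 7 libraries was left out, that is control 2 or any TGF-β or TGF-β + uridine library, with adjusted p of 0.0519 to 0.140, and DESeq2 called it too. The combined effect was -2.72 (SE 0.71, edgeR adjusted p = 0.0630). The 2 endothelial markers with enough reads, PECAM1 and ROBO4, had TGF-β effects of 0.91 and 1.89 (log2), of which that of ROBO4 passed. CDH11, the mesenchymal OB-cadherin commonly associated with fibrotic fibroblasts, had at most 4 reads in any library and was not tested, and the other 6 untested type II cadherins had at most 9.

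Of the remaining cadherins, the GPI-anchored T-cadherin (CDH13) had 3.50, 3.98 and 4.47 CPM in control, 4.23, 3.95 and 5.94 in TGF-β and 4.23, 3.71 and 4.34 in TGF-β + uridine, with overlapping groups. CDH16, the kidney cadherin, had 3.70, 1.74 and 1.74 CPM in control, 2.54, 2.28 and 2.0 in TGF-β and 1.23, 1.99 and 1.69 in TGF-β + uridine. Neither was called in any effect, and their log2 fold changes lay between -0.54 and 0.24. CDH23 of the hair cell tip link had at most 2 reads.

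Of 8 tested claudins, CLDN4 and CLDN9 rose in the TGF-β effect and none fell, while in the combined effect CLDN4 rose and CLDN7 fell. CLDN4, a barrier-forming claudin of simple epithelia, had 17.5, 11.7 and 11.4 CPM in control, 41.3, 35.7 and 36.5 in TGF-β and 38.2, 45.5 and 37.2 in TGF-β + uridine. Every treated library exceeded every control by a wide margin, and the TGF-β and TGF-β + uridine libraries overlapped. Its log2 fold change was 1.48 in the TGF-β effect (SE 0.18, edgeR adjusted p = 0.00248), which is 2.80-fold, and 1.57 in the combined effect (SE 0.18, edgeR adjusted p = 0.00168). The uridine effect was 0.09 (SE 0.18, edgeR adjusted p = 0.992). CLDN4 kept its call in all 9 fits that left out 1 library and under all 13 other alternatives tried, in both effects.

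CLDN9, which lies beside CLDN6 on chromosome 16, rose with TGF-β. Its 3 controls had 1.07, 1.05 and 0.587 CPM, its TGF-β libraries 2.79, 3.29 and 2.85, and its TGF-β + uridine libraries 1.98, 2.43 and 1.54. The 3 groups did not overlap, with TGF-β + uridine between the other 2. The TGF-β effect was 1.73 (log2, SE 0.31, edgeR adjusted p = 0.0162), the combined effect 1.14 (SE 0.31, edgeR adjusted p = 0.0707) and the uridine effect -0.59 (SE 0.30, edgeR adjusted p = 0.644). The TGF-β call was lost without control 2 or any of the 3 TGF-β libraries, with adjusted p of 0.0600 to 0.0842.

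CLDN7, another claudin of simple epithelia, had 16.8, 9.22 and 7.84 CPM in control, 7.09, 5.37 and 7.14 in TGF-β and 3.72, 3.68 and 3.84 in TGF-β + uridine. The groups were ordered control, TGF-β, TGF-β + uridine without overlap. The step with TGF-β was -0.79 (log2, SE 0.29, edgeR adjusted p = 0.250) and the step with uridine -0.80 (SE 0.29, edgeR adjusted p = 0.451), neither of which passed alone, while the combined effect of -1.59 did (SE 0.29, edgeR adjusted p = 0.0153). That call was lost when any 1 of the TGF-β + uridine libraries was left out (adjusted p = 0.0639 to 0.0777). GENCODE v29 places another protein-coding gene on the same strand over 10.8% of its exon bases and an exon of ELP5 opposite 1.53%, and the strand setting of the counts is not given in the sources used here.

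CLDN11, first known from myelin and testis, had 1, 19 and 16 reads in control, 26, 75 and 84 in TGF-β and 68, 25 and 38 in TGF-β + uridine. Its treated libraries were all above control and varied among themselves, with a TGF-β effect of 2.42 (log2, SE 0.74, edgeR adjusted p = 0.154) that DESeq2 called (adjusted p = 0.0183). None of the 9 fits that left out 1 library called it. Of 10 other alternatives 4 did, namely DESeq2 and the fits with the GC slope. GENCODE v29 places another protein-coding gene on the same strand over 18.3% of its exon bases. CLDN12 had 1.01, 5.00 and 8.85 CPM in control, 2.89, 4.28 and 4.68 in TGF-β and 5.16, 2.33 and 5.83 in TGF-β + uridine. Its control libraries enclosed all others. The remaining tested claudins, CLDN1, CLDN15 and CLDN23, lay between 0.148 and 2.17 CPM and were not called.

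Summed over the 11 claudins, the FPKM was 17.7 ± 1.21 in control, 30.7 ± 1.48 in TGF-β and 30.8 ± 0.430 in TGF-β + uridine (SD, n = 3), and no treated library came below 29 or control above 18.8. CLDN4 made up 43.0% to 45.3% of this sum in control, 69.8% to 74.1% in TGF-β and 76.0% to 81.2% in TGF-β + uridine, so its share was higher in each TGF-β + uridine library than in any TGF-β library. Without CLDN4, the other claudins summed to 9.93 ± 0.606 FPKM in control, 8.56 ± 0.728 in TGF-β and 6.77 ± 0.888 in TGF-β + uridine (SD, n = 3), and the TGF-β range of 8.03 to 9.40 overlapped the control range of 9.23 to 10.3. CLDN7 stood at 8.63, 5.98 and 5.68 FPKM in control 1, 2 and 3, against 8.49, 7.16 and 7.77 for CLDN4, and at 2.15 to 2.60 FPKM in TGF-β + uridine. Summed as TMM-scaled CPM per kb, the 11 claudins stood at 18.1 ± 4.12 in control (SD, n = 3). On that scale no control library exceeded 22.9 and no treated library fell below 28.9, a narrower gap than in FPKM. These sums are descriptions and carry no test.

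**Figure D4:**
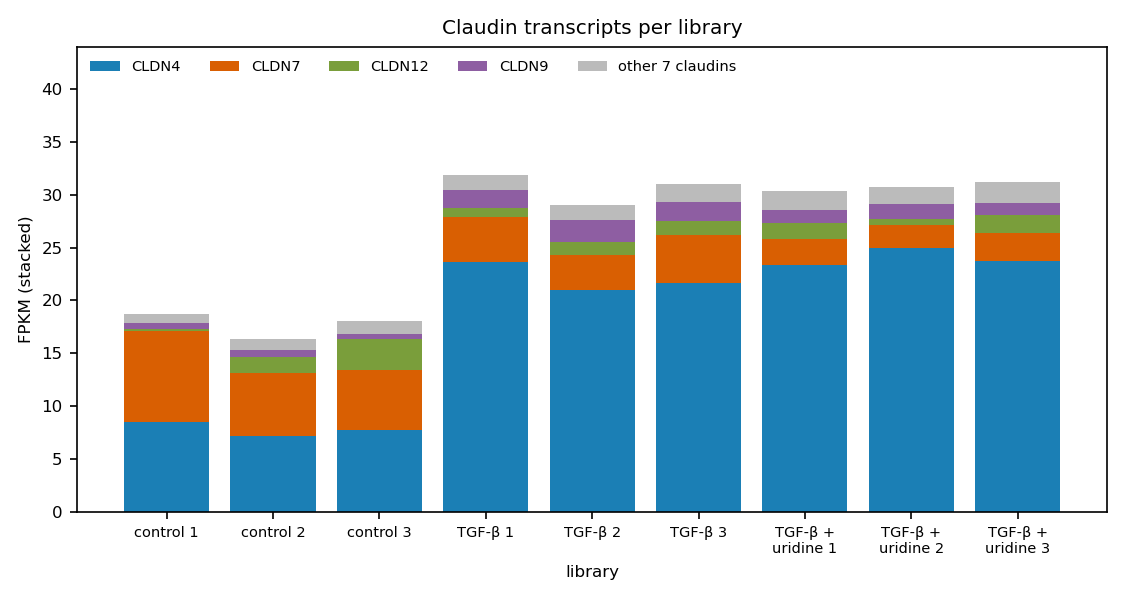
Stacked FPKM (y axis, from 0) of CLDN4, CLDN7, CLDN12, CLDN9 and the other 7 claudins in each of the 9 libraries (x axis). The CLDN4 part is 7.16 to 8.49 FPKM in control and at least 21.0 in every treated library, and the CLDN7 part is the smallest in TGF-β + uridine.

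Of the other tight junction membrane proteins, F11R, the junctional adhesion molecule JAM-A, was abundant and OCLN, or occludin, was nearly absent, with 0 to 11 reads per library. F11R had 105, 99.4 and 101 CPM in control, 101, 108 and 106 in TGF-β and 84.8, 80.0 and 77.6 in TGF-β + uridine. The TGF-β + uridine libraries were the lowest and did not overlap with the others, while control and TGF-β overlapped. The uridine effect was -0.37 (log2, SE 0.08, edgeR adjusted p = 0.251) and the combined effect -0.33 (SE 0.08, edgeR adjusted p = 0.0583), against a TGF-β effect of 0.04 (SE 0.08). The uridine effect passed with DESeq2 (adjusted p = 0.00251), in the fit of the compared groups alone (adjusted p = 0.0299) and without control 1 (adjusted p = 0.0261). F11R was not called in limma on log2(FPKM + 1) or with the replicate block.

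The zonula occludens scaffolds split. TJP3 (ZO-3), found in epithelial tight junctions, had 6.81, 4.24 and 3.86 CPM in control, 1.03, 0.557 and 0.731 in TGF-β and 0.744, 0.706 and 0.542 in TGF-β + uridine. Controls were all far above the treated libraries, which overlapped with each other. The TGF-β effect was -2.68 (log2, SE 0.34, edgeR adjusted p = 0.00288) and the combined effect -2.90 (SE 0.35, edgeR adjusted p = 0.0019), and both kept their call in all 9 fits that left out 1 library and in 13 other alternatives. The uridine effect was -0.22 (SE 0.34, edgeR adjusted p = 0.977).

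TJP1 (ZO-1), which is also found at adherens junctions, gave no such difference. TJP1 had 4.98, 9.29 and 14.1 CPM in control, 9.48, 9.90 and 11.8 in TGF-β and 10.2, 7.08 and 15.3 in TGF-β + uridine. Its groups overlapped, and log2 fold changes lay between 0.06 and 0.20 with adjusted p of at least 0.913 (edgeR). GENCODE v29 also has a gene on the same strand over 36.6% of the exon bases of F11R, which is not in the count table.

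Desmosomal cadherins were represented by DSG2 alone, the desmoglein of simple epithelia and heart muscle, which held at least 98.6% of their FPKM in each library. DSG2 had 4.98, 13.6 and 30.7 CPM in control, 20.8, 20.9 and 20.3 in TGF-β and 20.3, 15 and 31.1 in TGF-β + uridine. Control enclosed the TGF-β libraries, and no effect was called (log2 0.33, 0.10 and 0.43 in the TGF-β, uridine and combined effects). The desmocollins DSC2 and DSC3 had at most 2 and 10 reads in any library, and DSG3 and DSG4 at most 1.

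Transcripts of the plaque genes, whose proteins link these cadherins to keratins, were in contrast among the most abundant of the set. They summed to 206 ± 6.49 FPKM in control, 195 ± 0.656 in TGF-β and 162 ± 8.03 in TGF-β + uridine (SD, n = 3). Summed as TMM-scaled CPM per kb, control spread more widely, at 209 ± 33.5 (SD, n = 3). Its range of 185 to 247 on that scale enclosed the TGF-β range of 193 to 202, while TGF-β + uridine lay at 154 to 165. JUP, or plakoglobin, which binds both desmosomal and classical cadherins, had 494, 377 and 329 CPM in control, 312, 285 and 291 in TGF-β and 213, 222 and 194 in TGF-β + uridine. The groups were again ordered without overlap. The TGF-β step was -0.43 (log2, SE 0.15, edgeR adjusted p = 0.207), the uridine step -0.50 (SE 0.15, edgeR adjusted p = 0.362) and the combined effect -0.93 (SE 0.15, edgeR adjusted p = 0.00781), so only the sum of the steps passed. The combined effect of JUP kept its call without any 1 library and lost it in the fit of the compared groups alone (adjusted p = 0.0518). The uridine step was called without control 1, in limma and in the fit of the compared groups alone. That step was not called in DESeq2 or with the replicate block.

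PKP1, a plakophilin best known from stratified epithelium, had 3, 5 and 2 reads in control, 48, 22 and 21 in TGF-β and 15, 11 and 7 in TGF-β + uridine. The groups did not overlap, with TGF-β the highest, and it passed the filter through the treated libraries alone. The TGF-β effect was 3.15 (log2, SE 0.60, edgeR adjusted p = 0.0200), the combined effect 1.65 (SE 0.62, edgeR adjusted p = 0.188) and the uridine effect -1.49 (SE 0.52, edgeR adjusted p = 0.424). The TGF-β call was lost without control 2, control 3, TGF-β 1 or TGF-β 2, with adjusted p of 0.0505 to 0.0837.

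PKP3, the most abundant member, had 332, 214 and 180 CPM in control, 239, 232 and 229 in TGF-β and 205, 243 and 197 in TGF-β + uridine. Its control libraries enclosed the TGF-β libraries, and log2 fold changes lay between -0.17 and -0.05. DSP, or desmoplakin, the cytoskeletal linker of the desmosome, had 108, 239 and 358 CPM in control, 377, 402 and 376 in TGF-β and 315, 219 and 333 in TGF-β + uridine. All TGF-β libraries were above control, whose own libraries 1 and 3 differed by a log2 ratio of -1.73, and the TGF-β effect of 0.71 was not called (SE 0.36, edgeR adjusted p = 0.519). PKP2 and PKP4 overlapped between all groups in the TGF-β effect.

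**Figure D5:**
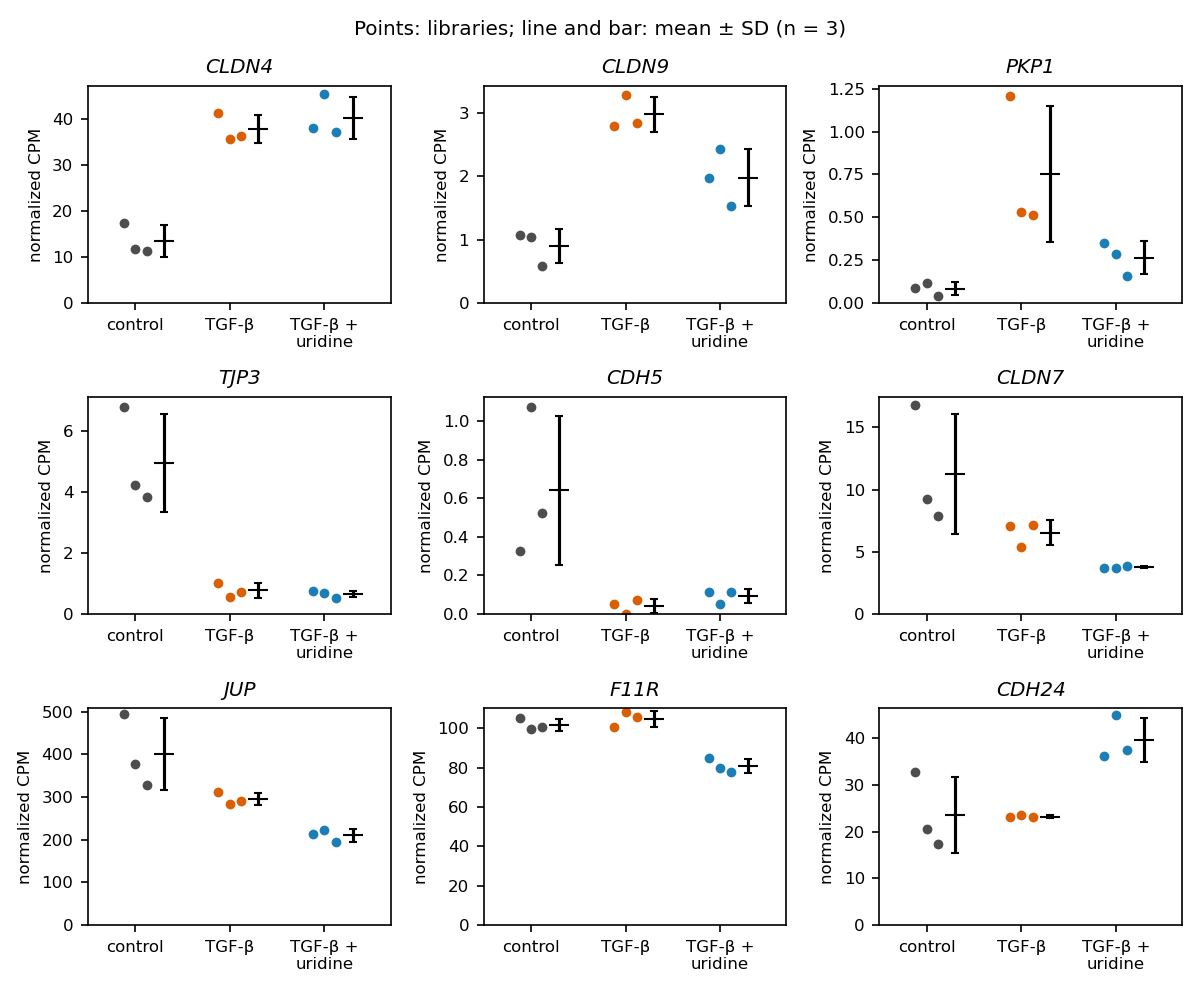
Normalized CPM (y axis from 0, own scale per gene) of CLDN4, CLDN9, PKP1, TJP3, CDH5, CLDN7, JUP, F11R and CDH24 by group (x axis), with 1 point per library and the mean ± SD (n = 3) beside them. CLDN4 and TJP3 separate control from both treated groups, JUP and CLDN7 step down from control to TGF-β to TGF-β + uridine, and F11R and CDH24 stand apart only in TGF-β + uridine.

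EPCAM, the epithelial cell adhesion molecule that steadies CLDN7, had 0, 2 and 5 reads in control, 2, 4 and 4 in TGF-β and 0, 0 and 1 in TGF-β + uridine, and was not tested. The epithelial splicing regulator ESRP2 had 12, 16 and 15 reads in control, 12, 14 and 20 in TGF-β and 4, 6 and 11 in TGF-β + uridine. Its TGF-β + uridine libraries were the lowest, with a uridine effect of -1.16 (log2, SE 0.45, edgeR adjusted p = 0.485). ESRP2 passed the read filter through the control and TGF-β libraries, where it was high. ESRP1 had 1 read in 1 library.

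Junction genes outside the symbol rule were read from the same fit. Of 51 listed catenins, nectins, polarity proteins, connexins and related genes, 47 were in the table and 36 were tested. In the TGF-β effect 2 of them rose and 1 fell, where 2.42% of all tested genes rose and 0.964% fell. NECTIN4, a nectin that pairs with NECTIN1, had 0.456 ± 0.238 CPM in control and 2.41 ± 0.508 in TGF-β (log2 fold change 2.41, edgeR adjusted p = 0.0185). PPL, or periplakin, which like DSP is a plakin, had 92.3 ± 7.72 CPM in control, 46.3 ± 2.54 in TGF-β and 34.6 ± 2.25 in TGF-β + uridine (SD, n = 3), a log2 fold change of -0.99 in the TGF-β effect and -1.41 in the combined effect (edgeR adjusted p = 0.00101 and 0.00016). No gene of this list passed in the uridine effect. At an unadjusted p under 0.05, 1 was higher and 3 were lower, against 4.65% higher and 4.14% lower of all tested genes. The median log2 fold change of the list was -0.10, 0.01 and -0.06 in the TGF-β, uridine and combined effects.

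The windows upstream of the called genes are shown for the 4 genes called in the combined effect. RefSeq promoter windows (GRCh38.p14) run from 250 bases before to 50 bases after a start site, and 27 of 47 members matched, with 48 windows. 4 motifs were searched on both strands: CAGGTG, the E-box bound by SNAI and ZEB factors; TGANTCA, the AP-1 site; GTCTAGAC, a palindromic SMAD box; and GGAATG, the TEAD site. The E-box was in 15 of 48 windows (31.2%, against 20.6% of all 35116 windows), AP-1 in 5 (10.4% against 7.71%), TEAD in 3 (6.25% against 14%) and the SMAD box in 0 (against 0.202%). These are letter matches and not binding sites, and several windows belong to 1 gene.

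Capitals mark the motif letters. The CLDN4 window lies at chr7:73830746-73831045 on the plus strand and holds AP-1 matches at -242 and -161 from the start. The TJP3 window at chr19:3721487-3721786 on the plus strand holds an E-box at -7 from the start, and its other listed window holds none of the motifs. The CLDN7 window at chr17:7262429-7262728 on the minus strand holds 5 E-box matches, and the JUP window at chr17:41785927-41786226 on the minus strand holds 2; each gene has another listed window with none of the motifs.
CLDN4: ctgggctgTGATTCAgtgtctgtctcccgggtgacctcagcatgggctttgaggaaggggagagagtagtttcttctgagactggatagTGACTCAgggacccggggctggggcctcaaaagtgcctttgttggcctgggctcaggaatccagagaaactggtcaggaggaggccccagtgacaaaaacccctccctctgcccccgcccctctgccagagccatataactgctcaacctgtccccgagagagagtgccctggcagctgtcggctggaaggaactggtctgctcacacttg
TJP3: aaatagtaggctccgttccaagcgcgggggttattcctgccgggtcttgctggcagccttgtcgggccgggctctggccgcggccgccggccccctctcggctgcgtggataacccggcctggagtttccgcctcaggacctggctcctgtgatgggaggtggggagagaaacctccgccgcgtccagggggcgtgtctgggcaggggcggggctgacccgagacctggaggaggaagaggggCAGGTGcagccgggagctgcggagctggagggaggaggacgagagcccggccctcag
CLDN7: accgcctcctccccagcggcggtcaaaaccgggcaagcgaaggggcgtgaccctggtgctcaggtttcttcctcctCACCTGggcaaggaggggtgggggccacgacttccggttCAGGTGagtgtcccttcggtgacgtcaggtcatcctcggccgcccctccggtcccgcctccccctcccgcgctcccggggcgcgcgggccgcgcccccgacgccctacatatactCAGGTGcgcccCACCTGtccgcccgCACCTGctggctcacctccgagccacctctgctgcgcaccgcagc
JUP: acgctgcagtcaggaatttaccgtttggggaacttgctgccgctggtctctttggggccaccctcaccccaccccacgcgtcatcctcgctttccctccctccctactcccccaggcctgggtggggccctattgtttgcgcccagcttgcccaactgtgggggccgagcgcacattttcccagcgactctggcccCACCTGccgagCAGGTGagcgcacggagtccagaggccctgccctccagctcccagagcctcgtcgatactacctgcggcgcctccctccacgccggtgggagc
E-boxes were also in windows of DSP, DSG2 and TJP1, none of which edgeR called, though DSP and DSG2 were called higher in the TGF-β and combined effects with the GC slope. The listed PKP1 window held none of the 4 motifs. Which start LX-2 cells use cannot be told from counts per gene.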

How the data were processed

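RNA was sequenced from 9 LX-2 libraries, 3 per group, and groups were taken from the sample labels. The authors deposited a table of raw counts per gene symbol, not normalized, and a table of FPKM for the same 20777 genes, and all 9 columns of each of the 2 tables were used, leaving 0 without a sample. The submitters' processing notes name fastp, HISAT2, HTSeq, R 3.2.0 and GRCh38.p13, and the strand setting and annotation version are not given in the sources used here. Gene positions and overlaps were taken from GENCODE v29 (GRCh38) and promoter windows from RefSeq.

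The quasi-likelihood test of edgeR 4.0.16 (R 4.3.3) was applied to the counts after its filterByExpr step and TMM scaling. 1 model of condition over the 9 libraries, with a common biological coefficient of variation of 0.289, gave the 3 effects. It tested 13384 genes, and p-values were adjusted by Benjamini-Hochberg over all of them at a threshold of 0.05. The test is two-sided and was checked on simulated data. DESeq2 1.42.0, limma 3.58.1 on log2(FPKM + 1) and log2(FPKM + 0.1), other normalizations and filters, a replicate block, fits without each library and a GC slope covariate were tried as alternatives. Total counts per library lay between 40539751 and 41467124, which sets the precision of low values.

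Library values are described in full for each called member and, in each role group, for the 3 tested members with the highest mean FPKM and the 1 with the largest TGF-β effect. The members and lists were chosen with earlier results of these data known. Results of 3 genes are not reported here, 1 of them a member.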

Additional observations from a re-analysis of the deposited data

How the results depend on the processing

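Over the alternatives tried, no called member reversed. Of 9 called results with 192 alternatives, 26 alternatives lost the call, for CDH5, PKP1 and CLDN9 in the TGF-β effect and CLDN7 and JUP in the combined effect. CLDN4 and TJP3 lost none. Members called in the TGF-β effect numbered 5, against 3 with at least 10 counts in every library, 2 in the fit of the compared groups alone, 7 in DESeq2, 2 to 6 when leaving out 1 library, and 12 with the GC slope covariate, with it and the replicate block, or with it in DESeq2. In the uridine effect 0 were called, against 1 in DESeq2, 3 in the fit of the compared groups alone, 2 in each of the 3 limma fits (log2(FPKM + 1), log2(FPKM + 0.1) and all listed genes), 0 to 4 when leaving out 1 library, and 5 with the GC slope covariate, with or without the replicate block or in DESeq2. In the combined effect 4 were called, against 10 in DESeq2, 2 in the fit of the compared groups alone, 7 in the limma fits on log2(FPKM + 1) and log2(FPKM + 0.1), 3 to 11 when leaving out 1 library (11 without control 1), and 14 with the GC slope covariate, with or without the replicate block or in DESeq2. Over all genes the uridine effect gave 6 calls, 239 in DESeq2 and 2554 with the GC slope covariate, the TGF-β effect 453, 861 and 2715, and the combined effect 714, 1293 and 4162. Without control 1 the uridine and combined effects gave 271 and 2413. The cause of these differences was not tested.

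The replicate numbers did not pair the libraries: over 9 same-numbered pairs the correlation of deviations ran from -0.21 to 0.558 and exceeded 0.1 in 2. With the replicate block, 4 members were called in the TGF-β effect (CDH5 was not), 0 in the uridine effect and 4 in the combined effect, and over all genes 314, 0 and 437. Group means of the family sums of FPKM and of TMM-scaled counts per kb differed by more than the spread of replicates in 1 of 27 cases, the plaque in TGF-β (195 against 197). The spread itself was not compared there, and for the plaque and the claudins the control libraries spread more widely on the TMM scale. The depth limits the 19 untested members, each with 11 reads or fewer, to a check of presence.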
